A study of Macaca fascicularis with 20 samples.

Results

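The 7 genes described here were measured in splenic natural killer (NK) cells: PLEKHG3, FGFBP2, STK38, CRIP1, TSPAN2, SENP5 and PDGFRB. They were chosen from these same arrays for a higher level in NK cells with surface CD11b (CD11b+) than in NK cells with little of it (CD11blo). They are 7 of the 12530 genes that the matched probes of the arrays represent, and 10 probes measure them. PLEKHG3 has 2 probes, TSPAN2 3 and each of the others 1. The levels that chose them are given below as a description, without a test. The comparisons tested are those the choice did not use, which set CD27+ against CD27lo NK cells and NK cells against B cells.

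The cells came from spleens of cynomolgus macaques (Macaca fascicularis) and were thawed from frozen stock, stained and sorted without stimulation. Live CD45+ cells lacking CD3, CD14, CD20 and HLA-DR and carrying NKG2A and CD8a were taken as NK cells and divided by CD27 and CD11b into 4 subsets. These were double-low cells (CD27lo CD11blo, 4 arrays), CD27 single positives (CD27+ CD11blo, 4 arrays), double positives (CD27+ CD11b+, 5 arrays) and CD11b single positives (CD27lo CD11b+, 5 arrays). B cells, sorted as CD20+ HLA-DR+ cells without NKG2A and CD8a, gave 2 arrays. Each array received Cy3-labelled product amplified from 50 ng of total RNA, and the labels call the NK arrays biological replicates. The arrays numbered 1 came from males aged 4 years whose origin is given as Cambodia, and those numbered 2 from males from Vietnam whose age is not known. The arrays numbered 3 also came from males from Vietnam, labelled 9 years for double-low cells, 10 for CD27 single positives, 11 for CD11b single positives and 12 for double positives. Arrays from Singapore had the number 4 in the CD11blo subsets (female, 18 years), 4 in the CD11b+ subsets (male, 5 years) and 5 in the CD11b+ subsets (female, 18 years). The B cell animals, also labelled Singapore, were a female of 5 years and a female of 18 years.

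NK cells are innate lymphocytes that kill infected or transformed cells with granules of perforin and granzymes. In mice, CD27 and CD11b order NK cells along maturation, with CD11b, an integrin chain that takes part in adhesion and migration, appearing as the cells mature. The 7 genes belong to different families. PLEKHG3 encodes a guanine nucleotide exchange factor that binds actin filaments, and FGFBP2 a secreted protein of cytotoxic lymphocytes. STK38 (NDR1) is a kinase of the Hippo-related NDR family, CRIP1 a small LIM-domain protein, TSPAN2 a tetraspanin of the cell membrane, and SENP5 a protease that cuts SUMO from proteins. PDGFRB is the beta receptor for platelet-derived growth factor, a tyrosine kinase best known from pericytes and other stromal cells.

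Levels are log2 signals from which the 75th percentile of the array was subtracted, so that 0 is that percentile and a step of 1 is a doubling. A probe was called well above background by the scanner software. The arrays lay on 3 slides, with the B cells on the second. The third held only CD11b+ arrays, numbers 4 and 5 of both CD11b+ subsets, so the CD11b comparison partly sets slides against each other. The 75th percentile ranged from 180 to 1897 intensity units over the 20 arrays (median 1280), and it was lowest on double-positive array 4 (180) and double-low array 4 (199.6). The share of probes well above background ranged from 67.9% to 96%. CD27, the only sort marker with a matched probe, had mean levels of 4.32 in CD27 single positives, 3.85 in double positives, 3.27 in double-low cells, 3.17 in CD11b single positives and 2.27 in B cells. Its CD27+ minus CD27lo difference was 0.87, and it did not pass the limma test (adjusted p = 0.198). The CD11b chain itself had no matched probe, so the arrays do not check that side of the sort. All 10 listed NK markers were measured and were higher in NK than in B cells, 8 of them past the test. The B cell markers CD22 (-5.74 ± 0.58) and PAX5 (-4.71 ± 0.52) were lower in NK than in B cells (standard errors; limma adjusted p = 6.82e-06 and 1.9e-05).

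**Figure D1:**
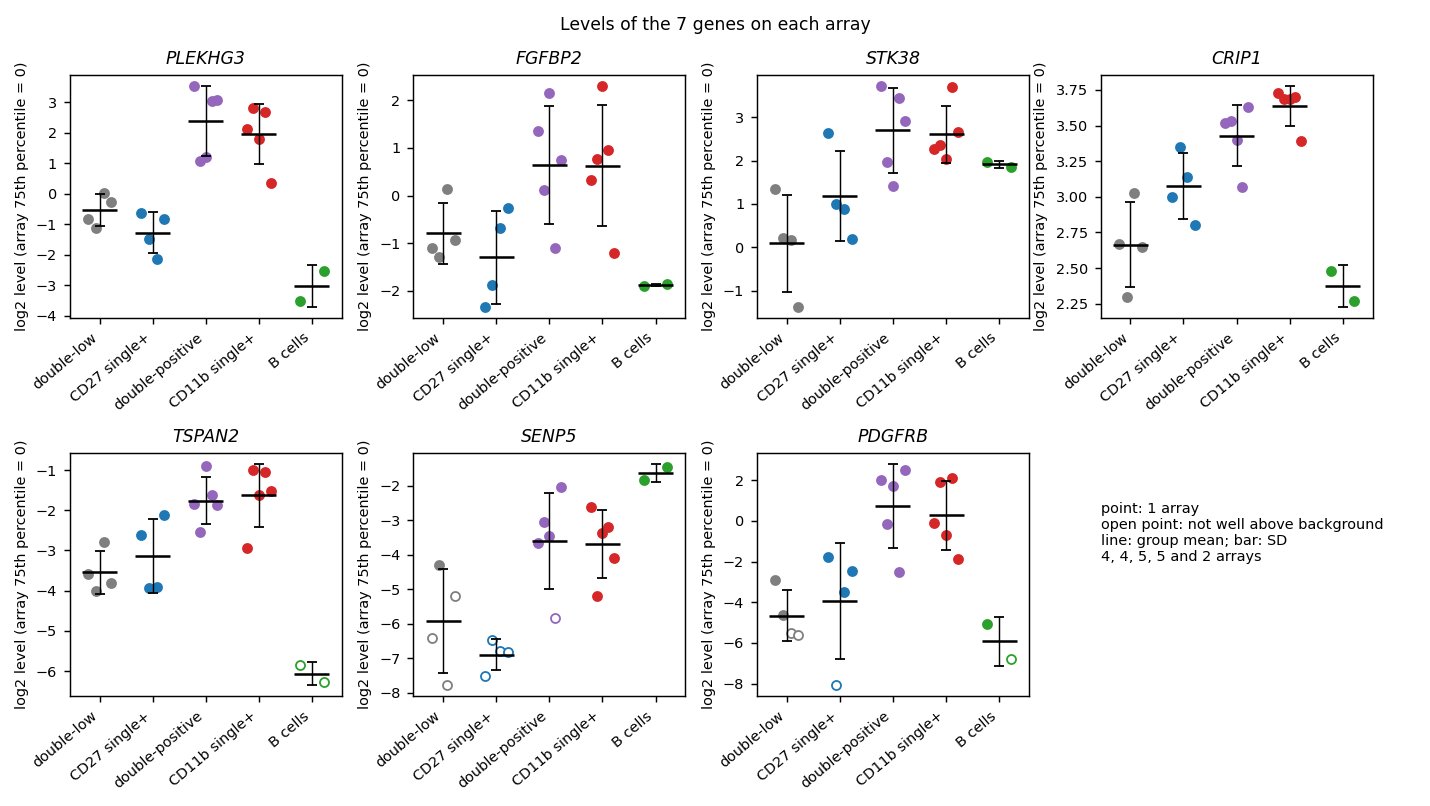
Log2 levels of the 7 genes on each of the 20 arrays (vertical axis, relative to the 75th percentile of the array; the axis range differs by gene) in 4 NK subsets and B cells. Points are arrays, open where the probe was not well above background, and lines and bars are means and SDs. For PLEKHG3 the lowest CD11b+ array (0.34) lies above the highest CD11blo array (0.02).

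PLEKHG3 (NCBI gene 102118259) led the group. Its level on double-positive arrays 1 to 5 was 3.54, 1.08, 1.19, 3.03 and 3.07. On CD11b single-positive arrays 1 to 5 it was 2.12, 2.80, 1.78, 2.67 and 0.34. All 10 CD11b+ arrays thus lay above the 75th percentile of their array. Double-low arrays 1 to 4 stood at -0.83, -1.12, 0.02 and -0.26, and CD27 single-positive arrays 1 to 4 at -0.64, -1.47, -2.15 and -0.84. The CD11b+ and CD11blo arrays did not overlap. Such a separation held for 1 of the 12192 genes tested (0.0082%), which is PLEKHG3 itself. The B cell arrays gave -3.51 and -2.53, below every NK array. The subset means were 2.38 ± 1.16 (SD, n = 5) in double positives, 1.94 ± 0.99 (n = 5) in CD11b single positives, -0.55 ± 0.52 (n = 4) in double-low cells, -1.27 ± 0.68 (n = 4) in CD27 single positives and -3.02 ± 0.69 (n = 2) in B cells. The CD11b+ mean exceeded the CD11blo mean by 3.07 ± 0.41 (standard error), or 8.4-fold, the third highest difference of 12192 genes. The 2 probes of PLEKHG3 followed each other with r = 0.999 over 20 arrays and differed by at most 0.18 on an NK array.

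FGFBP2 (NCBI gene 102127126) had a smaller difference and overlapping groups. Double-positive arrays 1 to 5 gave 1.35, 0.11, 2.15, -1.11 and 0.74, and CD11b single-positive arrays 0.32, 0.77, 2.31, 0.96 and -1.21. Double-low arrays gave -1.10, -1.28, 0.13 and -0.93, and CD27 single-positive arrays -2.34, -1.88, -0.68 and -0.27. Of the 10 CD11b+ arrays, 7 lay above every CD11blo array. The 3 others were double-positive arrays 2 and 4 and CD11b single-positive array 5. The B cell arrays, at -1.90 and -1.86, lay within the range of the CD27 single positives. Means ran from 0.65 ± 1.24 (SD, n = 5) in double positives and 0.63 ± 1.27 (n = 5) in CD11b single positives to -0.80 ± 0.63 (n = 4) in double-low cells, -1.29 ± 0.98 (n = 4) in CD27 single positives and -1.88 ± 0.03 (n = 2) in B cells. The CD11b difference was 1.68 ± 0.49 (standard error), rank 53 of 12192.

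STK38 (NCBI gene 102137857) was high in CD11b+ NK cells and also in B cells. Double-positive arrays 1 to 5 gave 3.73, 1.96, 1.42, 3.44 and 2.92, and CD11b single-positive arrays 2.27, 2.35, 2.04, 3.69 and 2.66. CD27 single-positive arrays gave 2.64, 1.0, 0.88 and 0.19, and double-low arrays 1.35, 0.22, 0.17 and -1.38. CD27 single-positive array 1, at 2.64, stood above 5 of the 10 CD11b+ arrays, while the other 7 CD11blo arrays lay below all of them. The B cell arrays gave 1.96 and 1.86, between the NK groups. In order, the means were 2.69 ± 0.98 (SD, n = 5) in double positives, 2.60 ± 0.65 (n = 5) in CD11b single positives, 1.91 ± 0.07 (n = 2) in B cells, 1.18 ± 1.04 (n = 4) in CD27 single positives and 0.09 ± 1.12 (n = 4) in double-low cells. The CD11b difference of 2.01 ± 0.42 (standard error) ranked 19 of 12192.

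CRIP1 (NCBI gene 102131050) had high levels everywhere and the smallest CD11b difference of the 7. CD11b single-positive arrays 1 to 5 gave 3.73, 3.69, 3.69, 3.70 and 3.39, and double-positive arrays 3.52, 3.53, 3.40, 3.07 and 3.63. CD27 single-positive arrays gave 3.0, 3.35, 3.14 and 2.80, and double-low arrays 2.67, 2.30, 3.03 and 2.65. Of the 10 CD11b+ arrays, 9 exceeded every CD11blo array, and double-positive array 4 (3.07) was the other one. The B cell arrays gave 2.48 and 2.27, near the lowest double-low array. From 3.64 ± 0.14 (SD, n = 5) in CD11b single positives the means went down through 3.43 ± 0.22 (n = 5) in double positives, 3.07 ± 0.23 (n = 4) in CD27 single positives and 2.66 ± 0.30 (n = 4) in double-low cells to 2.38 ± 0.15 (n = 2) in B cells. The CD11b difference of 0.67 ± 0.18 (standard error), or 1.59-fold, ranked 762 of 12192.

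TSPAN2 (NCBI gene 102134504) was measured in all NK subsets, but was not well above background in B cells with any of its 3 probes. With the brightest probe, double-positive arrays 1 to 5 gave -1.85, -2.54, -0.91, -1.62 and -1.87, and CD11b single-positive arrays -2.94, -1.01, -1.63, -1.05 and -1.52. Double-low arrays gave -3.59, -4.0, -2.78 and -3.80, and CD27 single-positive arrays -2.61, -3.94, -3.91 and -2.11. Of its 10 CD11b+ arrays, 8 lay above every CD11blo array. The B cell signals were -5.86 and -6.27. The means were -1.63 ± 0.78 (SD, n = 5) in CD11b single positives, -1.76 ± 0.59 (n = 5) in double positives, -3.14 ± 0.93 (n = 4) in CD27 single positives and -3.54 ± 0.54 (n = 4) in double-low cells. The CD11b difference was 1.65 ± 0.36 (standard error), rank 57 of 12192. The 3 probes correlated with r = 0.956 to 0.974 over 20 arrays, and they differed by up to 1.07 on an NK array.

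SENP5 (NCBI gene 102117667) was dim in NK cells and brightest in B cells. It was well above background on 10 of 18 NK arrays, 9 of them CD11b+. Double-positive arrays 1 to 5 gave -3.66, -3.05, -3.45, -5.84 and -2.05, and CD11b single-positive arrays -2.62, -5.20, -3.37, -3.20 and -4.09. Of these only double-positive array 4, the dimmest array of the series, was not well above background. Double-low arrays gave -6.41, -4.31, -7.78 and -5.19, of which only array 2 was well above background, and none of the CD27 single-positive signals was (-7.52, -6.46, -6.79 and -6.82). The B cell arrays gave -1.83 and -1.45, above every NK array. The means were -1.64 ± 0.27 (SD, n = 2) in B cells, -3.61 ± 1.39 (n = 5) in double positives, -3.70 ± 0.99 (n = 5) in CD11b single positives and -5.92 ± 1.51 (n = 4) in double-low cells. Set against the background level of the CD27 single-positive arrays, double positives were at least 3.7-fold higher and CD11b single positives at least 3.49-fold higher. Such a bound takes, on each array, the lowest signal among probes well above background, or the probe's own signal where that is higher. The fitted CD11b difference was 2.76 ± 0.54 (standard error), and 1.09 with normexp background correction. Since 1 of 8 CD11blo arrays was well above background, the size of this difference is not settled, here and where it is given below.

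PDGFRB (NCBI gene 101867161) had the highest CD11b difference of all genes tested and the widest spread of the 7. Double-positive arrays 1 to 5 gave 2.03, -0.13, 1.73, -2.53 and 2.53, and CD11b single-positive arrays -0.10, 1.91, -0.71, 2.12 and -1.85. Double-low arrays gave -2.89, -4.61, -5.51 and -5.60, and CD27 single-positive arrays -1.77, -8.08, -3.49 and -2.46. Double-low arrays 3 and 4 and CD27 single-positive array 2 were not well above background. For PDGFRB, 8 of 10 CD11b+ arrays lay above every CD11blo array. The B cell arrays gave -5.06 and, not well above background, -6.77. The means were 0.73 ± 2.08 (SD, n = 5) in double positives, 0.27 ± 1.71 (n = 5) in CD11b single positives, -3.95 ± 2.84 (n = 4) in CD27 single positives, -4.65 ± 1.26 (n = 4) in double-low cells and -5.91 ± 1.21 (n = 2) in B cells. The CD11b difference was 4.80 ± 0.87 (standard error), rank 1 of 12192. It was 4.11 without CD27 single-positive array 2 and 3.41 with normexp background correction, and 3 of the 8 CD11blo signals behind it were not well above background. In sorted populations a higher level per cell and more cells that carry the transcript cannot be told apart, for PDGFRB as for the other genes.

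Markers of stromal, pericyte and endothelial cells are given beside PDGFRB, since that is where the receptor is best known. Of 12 listed markers 7 were measured, and all 7 had a CD11b difference below 0, with a median of -0.65 against -0.13 over all genes. Their mean level, centred on the NK arrays, ranged from -1.81 to 0.07 in double positives, from -0.82 to 1.20 in CD11b single positives, from -0.49 to 0.30 in CD27 single positives and from 0.28 to 1.4 in double-low cells. The double-low arrays thus lay above all double positives in stromal marker level and overlapped the CD27 single positives only at the edge, while their mean PDGFRB level was the lowest of the NK subsets. The CD11b single positives, whose PDGFRB was high, overlapped the double-low arrays in stromal marker level. PECAM1, CDH5, VWF and COL1A1 were well above background on all 18 NK arrays. DCN, the decorin gene of fibroblasts, was so on 0 of 5 double-positive, 3 of 5 CD11b single-positive, 1 of 4 CD27 single-positive and 3 of 4 double-low arrays. COL3A1, a fibrillar collagen, was so on 2 of 5 double-positive arrays and on all arrays of the other NK subsets. ACTA2, the smooth muscle actin of pericytes, went another way, with 2 of 5 double-positive, 5 of 5 CD11b single-positive, 1 of 4 CD27 single-positive and 2 of 4 double-low arrays. Over the 18 NK arrays, the stromal marker level and PDGFRB had r = -0.41, or -0.12 with subset means removed, as a description. The part of stromal cells in the PDGFRB values was not tested.

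All 7 genes passed the filter on dim probes. PLEKHG3, FGFBP2, STK38, CRIP1 and TSPAN2 were well above background on all 18 NK arrays, PDGFRB on 15 and SENP5 on 10. The choice fixed the direction of the CD11b difference, so its sign carries no evidence. A difference above 0 was found for 36.7% of all genes, and 8.26% were above 0 in each of the 4 pairs of a CD11b+ with a CD11blo subset. Over all genes, 614 of 12192 had an unadjusted limma p under 0.05 for CD11b, where 610 are expected by chance. That expectation of 610 is the same in the other NK comparisons below. After adjustment the limma test for CD11b called 2 of 12192 (0.0164%), a count that was 0 to 5 under the other settings tried. One was the perforin gene PRF1 (1.95 ± 0.31) and the other PLEKHG3, for which nothing is read from the call, since it was chosen on this contrast. The dimmest arrays of both CD11b+ subsets had low levels of several of the genes. Double-positive array 4 (75th percentile 180) was the lowest of its subset for FGFBP2, CRIP1, SENP5 and PDGFRB, and CD11b single-positive array 5 (578.2) for PLEKHG3, FGFBP2, CRIP1 and PDGFRB. In double-low cells the dim array 4 (199.6) was lowest for STK38 and PDGFRB, but the brighter array 2 (1061) for PLEKHG3, FGFBP2, CRIP1 and TSPAN2. Over the 18 NK arrays, r of the level with the log2 75th percentile ran from -0.06 (PLEKHG3) to 0.32 (CRIP1). With subset means removed it ran from -0.02 (PLEKHG3) to 0.54 (CRIP1). The part of array brightness in these values was not tested. Without double-positive array 4 and double-low array 4 the CD11b differences were 3.04 for PLEKHG3, 1.88 for FGFBP2, 1.67 for STK38, 0.71 for CRIP1, 1.59 for TSPAN2, 3.16 for SENP5 and 5.05 for PDGFRB.

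The first and second slides each held all 4 NK subsets, and the CD11b difference was above 0 on both slides for each gene. These arrays were among those that chose the genes, so the sign on either slide carries no evidence. On the first and second slide it was 3.39 and 2.29 for PLEKHG3, 2.28 and 2.67 for FGFBP2, 1.27 and 1.76 for STK38, and 0.79 and 0.64 for CRIP1. For TSPAN2 it was 1.45 and 1.88, for SENP5 2.54 and 3.24, and for PDGFRB 5.26 and 4.77. With the slide as a block, STK38 gave 1.47 and FGFBP2 2.44, and the other 5 genes stayed between 0.73 (CRIP1) and 5.07 (PDGFRB).

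In the labels 4 sets of arrays share origin and sex, and all but the arrays numbered 3 also carry the same age label. In each set a CD11b+ array can be set against a CD11blo array at CD27+ and at CD27lo. PLEKHG3 was higher in the CD11b+ array in 8 of these 8 pairs, with set means from 2.26 to 3.56. STK38 (1.0 to 3.38), CRIP1 (0.46 to 0.79), TSPAN2 (0.70 to 2.2) and PDGFRB (3.29 to 7.24) were also higher in 8 of 8. FGFBP2 was higher in 7 of 8, and was lower by a difference of -0.28 in the CD27lo pair of the 18-year-old female. SENP5 was higher in 7 of 8, with -0.88 in the CD27lo pair of the arrays numbered 2. The set of the 18-year-old female has its CD11blo arrays on the second and its CD11b+ arrays on the third slide, while each other set lies on 1 slide. The labels do not say whether a set is 1 animal. These values used the same contrast as the choice, so the counts of pairs carry no evidence. The share of all genes that reach such counts was not computed.

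**Figure D2:**
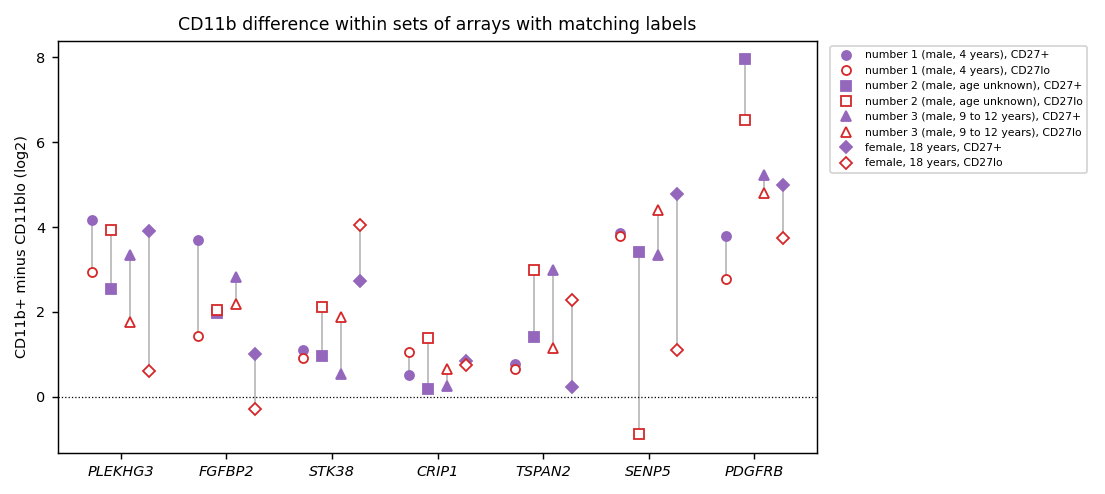
CD11b+ minus CD11blo log2 difference (vertical axis) of each gene within 4 sets of arrays with matching labels, at CD27+ (filled) and CD27lo (open), 1 symbol shape per set. Of 8 pairs per gene, 8 lie above 0 for 5 genes and 7 for FGFBP2 and SENP5. The genes were chosen on this contrast, so the counts carry no evidence.

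The next question was whether the genes also differ with CD27, which the choice did not use. None of the 7 genes passed the limma test between CD27+ and CD27lo NK cells, where 0 of 12192 genes did (0%), while 2711 had an unadjusted p under 0.05. The median difference of all genes was -0.37, and 33.9% of them were above 0. PLEKHG3 differed by -0.15 ± 0.41 (standard error), with a 95% interval from -1.01 to 0.72 and an adjusted p of 0.816. The interval thus leaves out a CD27 difference as large as the 3.07 seen with CD11b, a value that the choice of the gene tends to raise. STK38 had the highest value, 0.59 ± 0.42 (interval -0.30 to 1.48, limma adjusted p = 0.352). The others were 0.58 for PDGFRB (-1.24 to 2.40), 0.14 for TSPAN2 (-0.63 to 0.90), 0.10 for CRIP1 (-0.28 to 0.48) and -0.24 for FGFBP2 (-1.26 to 0.79), with limma adjusted p from 0.649 to 0.805. For SENP5 the CD27 single positives were below background, so its value is not read. The direction for PLEKHG3 turned to 0.03 with median scaling. With array weights 3972 genes passed this test, and none of the 7 was among them.

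Within the CD11b+ cells, the means of double positives and CD11b single positives differed by 0.45 or less for each gene. Equal levels are not shown by this. Within the sets of arrays with matching labels the difference ran from -2.04 to 4.37 for PDGFRB and from -1.72 to 2.73 for PLEKHG3. None of the 7 genes and 0 of 12192 (0%) passed the limma test, and 723 genes had an unadjusted p under 0.05. Of all genes, 32.6% were above 0. The difference, double positives minus CD11b single positives, was 0.44 for PLEKHG3 (95% interval -0.72 to 1.59), 0.02 for FGFBP2 (-1.34 to 1.38), 0.09 for STK38 (-1.10 to 1.28) and -0.21 for CRIP1 (-0.71 to 0.29). It was -0.13 for TSPAN2 (-1.15 to 0.88), 0.09 for SENP5 (-1.43 to 1.60) and 0.45 for PDGFRB (-1.97 to 2.88). The direction turned with at least 1 setting for each gene but CRIP1, which came to 0.00 with median scaling. None of these directions is settled. The interval is narrowest for CRIP1 and for PDGFRB allows several units either way.

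Within the CD11blo cells, CD27 single positives minus double-low cells, 0 of 12192 genes (0%) passed, with 1566 at an unadjusted p under 0.05, a median of -0.45 and 35.3% above 0. PLEKHG3 had a difference of -0.73 (95% interval -2.02 to 0.56, limma adjusted p = 0.475) and STK38 of 1.09 (-0.24 to 2.41, adjusted p = 0.379). CRIP1 gave 0.41 (-0.15 to 0.97), TSPAN2 0.40 (-0.73 to 1.54), FGFBP2 -0.49 (-2.02 to 1.03) and PDGFRB 0.70 (-2.01 to 3.41), with limma adjusted p from 0.398 to 0.734. SENP5 was below background in most of these arrays, so no difference is read for it. The interaction asks whether the CD11b difference is larger in CD27+ than in CD27lo cells, and 0 of 12192 genes passed it (0%), with 175 at an unadjusted p under 0.05. It was 1.17 ± 0.82 for PLEKHG3 (interval -0.56 to 2.89), 0.51 ± 0.97 for FGFBP2, -0.25 ± 1.73 for PDGFRB, -0.53 ± 0.73 for TSPAN2, -0.62 ± 0.36 for CRIP1 and -1.0 ± 0.85 for STK38. The limma adjusted p was 1 for each of them, and no value is read for SENP5.

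**Figure D3:**
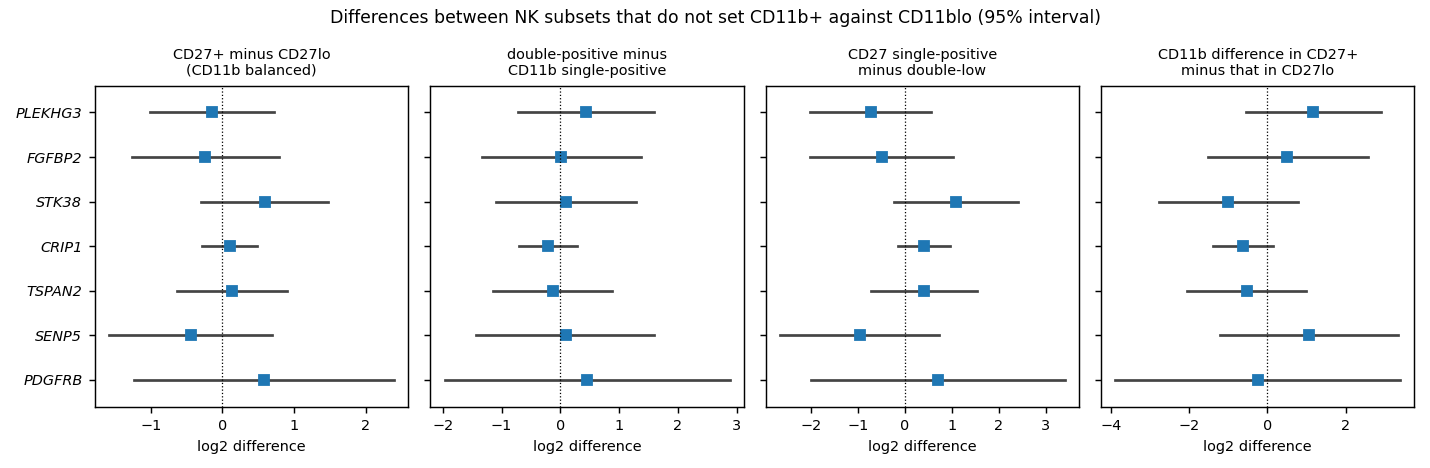
Log2 differences (squares) with 95% intervals (lines) of the 7 genes in 4 comparisons that the choice of genes did not use. Each of the 28 intervals includes 0, those of SENP5 outside the second panel rest largely on signals below background, and the PLEKHG3 interval for CD27+ minus CD27lo runs from -1.01 to 0.72.

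The last comparison asks whether the genes differ between NK cells and another splenic lymphocyte. It set the mean of the 4 NK subset means against the 2 B cell arrays, and 362 of 12388 genes (2.92%) passed the limma test, 213 of them higher in NK cells (1.72%) and 149 lower (1.2%). The median difference of all genes was 0.36, and 59.1% of them were above 0. After quantile normalization 252 genes passed and 35.3% of them were higher in NK cells. Of the 7 genes 3 passed, PLEKHG3 and TSPAN2 higher and SENP5 lower. Both B cell arrays lay on the second slide and came from females from Singapore. Most NK arrays came from males and from Cambodia or Vietnam, so sex and origin are not balanced in this comparison.

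PLEKHG3 was 3.65 ± 0.64 (standard error) higher in NK than in B cells, or 12.5-fold (limma adjusted p = 0.00231). Each of the 18 NK arrays exceeded both arrays of B cells, as for 7.44% of all genes. The CD11blo arrays were among them, with a mean 2.11 above B cells, and the CD11b+ mean was 5.18 above. On the slide of the B cells alone the difference was 3.36 (limma adjusted p = 0.0377), and with the slide as a block 3.47 (adjusted p = 0.0142). The call was lost without B cell array 1 (3.16, limma adjusted p = 0.19) and with the animal label, the origin, sex and age in the labels, as a block (3.11, adjusted p = 0.259). B cell array 2 shares that label with 4 NK arrays.

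TSPAN2 was at least 8.06-fold higher in NK than in B cells, where it was not well above background. The fitted difference was 3.55 ± 0.56 (standard error; limma adjusted p = 0.000768), and each of the 18 NK arrays exceeded both of B cells. In CD11b+ cells the level was at least 14.3-fold that of B cells, and in CD11blo cells at least 4.56-fold. On the B cell slide alone the difference was 3.85 (limma adjusted p = 0.0398), and with the slide as a block 3.81 (adjusted p = 0.00112). The difference was smaller after quantile normalization (2.69, limma adjusted p = 0.0306) and with the deposited matrix (2.67, adjusted p = 0.0332). With normexp it was 1.89 and past the test. The bound of 8.06-fold does not hold under these settings. The call was lost without B cell array 2 (3.34, limma adjusted p = 0.0747) and with the animal label as a block (3.95, adjusted p = 0.0649).

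SENP5 was lower in NK than in B cells by -3.39 ± 0.82 (standard error; limma adjusted p = 0.0297). All 18 NK arrays lay below both B cell arrays, as for 3.19% of all genes. The CD11b+ mean differed from B cells by -2.01, and the CD27 single positives, below background, were at least 14.5-fold lower. SENP5 is thus the only one of the 7 genes whose level in B cells lay above that of each CD11b+ array. On the B cell slide alone the difference was -3.39 (limma adjusted p = 0.0452), and with the slide as a block -3.46 (adjusted p = 0.0434). The call was lost in several settings: without B cell array 1 (-3.58, limma adjusted p = 0.324), without B cell array 2 (-3.20, adjusted p = 0.412), with normexp (-1.68, adjusted p = 0.0739), with the replicate number as a block (-3.26, adjusted p = 0.0658) and with the animal label as a block (-3.09, adjusted p = 0.517).

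The other 4 genes did not pass. PDGFRB had the largest difference, 4.02 ± 1.34 (standard error; limma adjusted p = 0.102), with 15 of 18 NK arrays above both of B cells, and it passed on the B cell slide alone (4.04, adjusted p = 0.0377) but not with the slide as a block (4.09, adjusted p = 0.101). Without CD27 single-positive array 2, its lowest value, it also passed (4.36, limma adjusted p = 0.0438). It was 4.87 without B cell array 1, 3.16 without B cell array 2, which was not well above background, and 2.85 with normexp, and did not pass in these. FGFBP2 gave 1.68 ± 0.74 (limma adjusted p = 0.194), with 10 of 10 CD11b+ and 6 of 8 CD11blo arrays above both B cell arrays. It passed on the B cell slide alone (2.78, limma adjusted p = 0.0374) and with the slide as a block (2.74, adjusted p = 0.0142). CRIP1 gave 0.83 ± 0.27 (limma adjusted p = 0.0988), with 17 of 18 NK arrays above. STK38 gave -0.27 ± 0.65 (95% interval -1.63 to 1.09, limma adjusted p = 0.791), with 8 of 10 CD11b+ arrays above both B cell arrays and 1 of 8 CD11blo arrays.

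**Figure D4:**
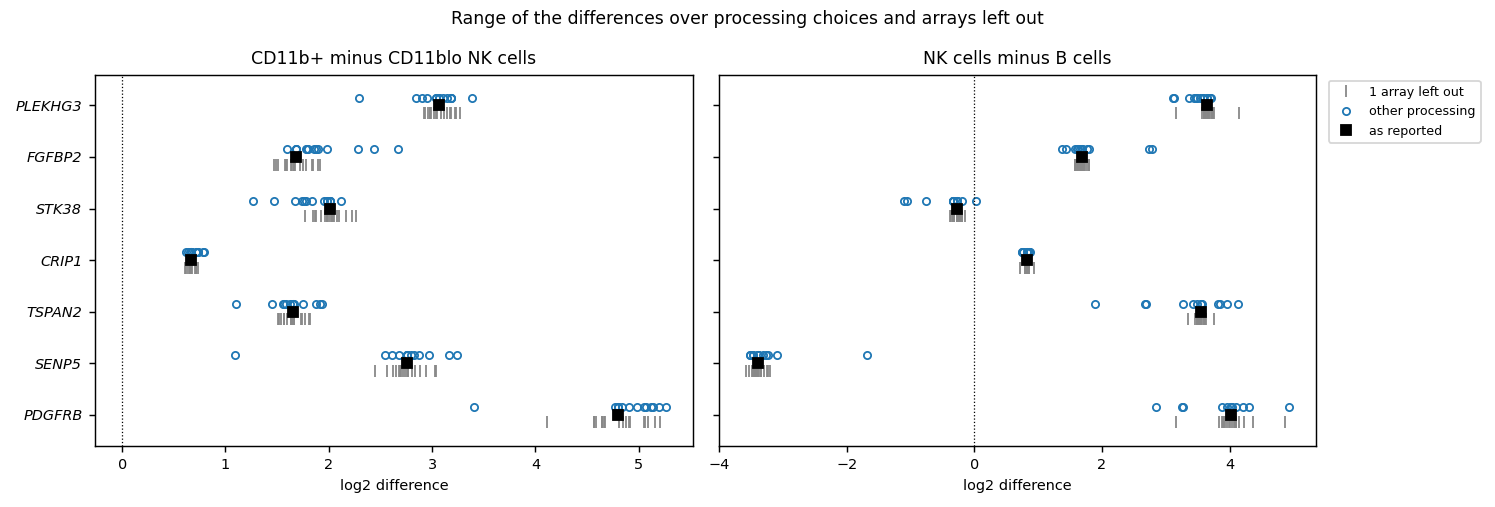
Log2 differences of the 7 genes for CD11b+ minus CD11blo NK cells (left, a description) and NK minus B cells (right), as reported (squares), under other processing (circles) and with 1 array left out (ticks). All CD11b values stay above 0, which the choice of the genes on these arrays favours, with SENP5 at 1.09 under normexp. In the B cell comparison STK38 alone crosses 0 (-1.11 to 0.03).

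Each gene was set beside other genes of its family or pathway, from lists that were drawn up with results of these data known. In the list of exchange factors and actin regulators, 30 of 43 genes were measured. PLEKHG3 was the 1 of 30 that passed against B cells, and the list's median was -0.33 against 0.36 over all genes. Without PLEKHG3 the median CD11b difference was -0.05 and 13 of 29 were above 0. Of the NDR kinase and Hippo genes 20 of 28 were measured, 0 passed against B cells, and without STK38 the median CD11b difference was -0.04. After STK38 the largest CD11b differences were those of MOB3A, of the family of NDR kinase cofactors (0.88 ± 0.73), and WWTR1, the Hippo target TAZ (-0.67 ± 0.60; standard errors).

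Of the 24 measured tetraspanins, TSPAN2 passed as higher and TSPAN33, known from activated B cells, as lower in NK cells (-5.58 ± 0.85; limma adjusted p = 0.000566). The CD11b differences of TSPAN32 (1.09 ± 0.40) and TSPAN6 (-1.15 ± 0.60) were the next in size, and the median without TSPAN2 was -0.22. Of 24 listed LIM proteins 16 were measured. LMO2, a LIM-only transcription cofactor of blood and germinal centre B cells, passed as lower in NK cells (-7.33 ± 0.86; limma adjusted p = 3.05e-05). PDLIM1 (-2.13 ± 0.64) and PDLIM2 (1.12 ± 0.36), scaffold proteins with a PDZ and a LIM domain, had larger CD11b differences than CRIP1. Of 16 measured SUMO pathway genes SENP5 was the 1 that passed against B cells. The SUMO ligase gene ZNF451 (-1.15 ± 0.46) and NSMCE2 (-0.67 ± 0.30), another ligase, followed it in the size of the CD11b difference, and the median without SENP5 was -0.14.

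Of 17 measured genes of PDGF ligands and related receptor kinases 0 passed against B cells. The CD11b difference of KIT, the receptor for stem cell factor, was -2.50 ± 0.99, and that of CSF1R, the receptor of macrophage colony-stimulating factor, was -0.84 ± 0.38 (standard errors). Without PDGFRB, 3 of 16 were above 0 and the median was -0.20. The list of effector NK genes, which holds FGFBP2, had 22 of 29 genes measured. Of the 22, 9 passed as higher in NK than in B cells and 0 as lower, with a median of 2.41. GZMB (granzyme B, 5.84 ± 0.46), PRF1 (5.87 ± 0.56), GNLY (granulysin, 5.19 ± 0.65) and NKG7, a granule membrane protein (5.44 ± 0.72), had the lowest adjusted p (limma, 2.11e-07 to 0.000125). For CD11b, 14 of its 21 genes other than FGFBP2 were above 0, with a median of 0.87 against -0.13 over all genes. GZMH, another granzyme (2.59 ± 0.57), and SELPLG, the P-selectin ligand (2.02 ± 0.38), had the largest CD11b differences.

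The 7 genes varied together over the 18 NK arrays mainly through the difference between subsets. Over the 21 pairs of genes, Pearson r ran from 0.27 (FGFBP2 with STK38) to 0.78 (TSPAN2 with PDGFRB), with a median of 0.65. The genes were chosen on 1 contrast of these arrays, which favours such correlations. After the mean of each subset was removed, r ran from -0.50 (TSPAN2 with SENP5) to 0.41 (FGFBP2 with PDGFRB), with a median of 0.16 and 15 of 21 above 0. These values share the arrays and their scaling and are a description.

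By the same measure over 18 NK arrays, and leaving out the other 6 of the 7 genes, those most like PLEKHG3 were TXNIP (r = 0.81), a thioredoxin-binding protein, KLF3 (0.79), a transcription factor, AFAP1L2 (0.79), GPR141 (0.78) and ADD3 (0.78), an adducin of the membrane skeleton. With subset means removed their r with PLEKHG3 was 0.56 to 0.71. STK38 was closest to TXNIP (0.90) and S100A4 (0.89), a calcium-binding protein, and these kept r = 0.83 and 0.73 within subsets. CRIP1 was closest to PRF1 (0.81) and TBX21 (0.73), the gene of the transcription factor T-bet. Within subsets the r of CRIP1 with PRF1 was 0.22. TSPAN2 was closest to SELPLG (0.85) and GZMH (0.78), FGFBP2 to AFAP1L2 (0.81) and CDC25B (0.79), a cell cycle phosphatase, SENP5 to UBL4A (0.78) and ACSBG1 (0.74), and PDGFRB to GPR141 (0.79) and SELPLG (0.75).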

How the data were processed

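The submitters' processing notes name Agilent Feature Extraction 10.7.1.1 for scanning and, with no version or settings, Partek. The processed signal is, per the file headers, an intensity that the software had background-subtracted. The deposited matrix holds log2 values with equal quantiles on every array. Flags that mark outlier spots and probes well above background are those the authors deposited. Control and outlier spots were left out, spots of 1 probe averaged, and the log2 signal minus the array's 75th percentile taken. Of 58659 probes, 20417 (34.8%) matched 12530 genes by transcript accession in the RefSeq table of assembly T2T-MFA8v1.1. A probe needed to be well above background on 4 of 18 NK arrays (2 of 20 for B cells), and the brightest stood for its gene. The R package limma 3.58.1 (R 4.3.3) fitted 1 mean per group with no block, its eBayes step used a trend and was robust, and p was adjusted by Benjamini-Hochberg over all genes at 0.05. The fit was tried on simulated data, with known differences added to residuals shuffled between arrays. Shuffling breaks the link between slide and subset, so this trial does not cover that link. The number of B cell arrays, 2, limits the precision. Members, lists and tests were chosen with earlier results of these data known. The named genes were the 7, the 5 (PLEKHG3) or 2 genes of highest r with each, and per list up to 4 genes past the test and the 2 of largest CD11b difference, of which a few are not reported here. Normexp used the spot median signal (offset 50), since the mean signal was not used here. Other alternatives were scalings, the deposited matrix, probe filters, blocks, array weights and arrays left out.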

Additional observations from a re-analysis of the deposited data

Results flagged for a closer look

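One value stood apart from its group. In CD11b single-positive cells the CRIP1 level on array 5 was 3.39, while the nearest of the other 4 arrays was at 3.69, so that this gap took up 0.893 of the group's range against a critical value of 0.71 for 5 samples (Dixon). The array also had the lowest PLEKHG3, FGFBP2 and PDGFRB levels of its subset and the lowest 75th percentile of signal in it (578.2 units). Of 28 groups of values examined 1 was flagged, and chance flags about 1 in 20.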

How the results depend on the processing

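Leaving out the arrays in turn or changing the processing reversed no difference that had passed a test. It also reversed none of the 7 CD11b differences, but the choice of the genes on these arrays favours that, so their sign carries no evidence. In the CD11b comparison 1 gene passed with median scaling, with the mean of all probes, without the 2 dimmest arrays and with the replicate number as a block, 0 with the slide or the animal label as a block or within the first or the second slide, and 5 with array weights. Leaving out 1 array gave 1 to 4. For CD27, 1 gene passed with median scaling and with normexp, 3972 with array weights and 1385 within the first slide, and 0 to 1 with 1 array left out. For CD27 single positives against double-low cells 2 passed with array weights. Against B cells 600 passed with the slide as a block, 84 with the animal label as a block, 5673 with array weights, 1924 on the B cell slide alone, and 64 to 719 with 1 array left out (64 without either B cell array, 719 without CD11b single-positive array 4).

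Array weights brought 3 more genes past the test against B cells: FGFBP2 (1.76, limma adjusted p = 0.00264), CRIP1 (0.84, 0.000445) and PDGFRB (3.87, 0.00154). With these weights 5673 of 12388 genes passed that test, against 362 of 12388 (2.92%) in the main fit. The 3 calls thus came with a rise over all genes and do not set these genes apart. Same-numbered arrays deviated together in part (r from -0.30 to 0.41 over 25 pairs, 17 above 0.1), and 12 of 18 arrays correlated best with their own number. The main fit, with no block, does not model this shared deviation. The numbers are also not animals throughout. Number 4 has other labels in CD11blo (18 years) than in CD11b+ subsets (5 years), and B cell array 1 (5 years) other labels than NK arrays 1 (4 years). The number block is thus not a pairing by animal. With the number as a replicate block SENP5 lost its call against B cells (-3.26, limma adjusted p = 0.0658), and with the animal label as a block all 3 of the genes called did.

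Reversed values were all small or wide differences that had not passed. Double positives minus CD11b single positives turned as follows. FGFBP2 gave -0.03 with quantile normalization and with the deposited matrix, -0.60 with array weights, -0.16 within the second and -0.06 within the third slide. STK38 gave -0.03 with quantile normalization and with the deposited matrix, -0.10 without the 2 dimmest arrays, -0.63 within the second slide and -0.00 within the third. TSPAN2 gave 0.15 with quantile normalization and with the deposited matrix, 0.08 with median scaling and 0.72 within the second slide. CRIP1 only came to 0.00, with median scaling. PLEKHG3 gave -0.15 within the first and -0.60 within the second slide, SENP5 -0.07 within the second and -0.30 within the third, and PDGFRB -0.13 within the third. With 1 array left out the ranges were -0.44 to 0.46 for FGFBP2, -0.08 to 1.27 for PDGFRB, -0.30 to 0.64 for SENP5, -0.46 to 0.06 for TSPAN2 and -0.17 to 0.41 for STK38. For CD27+ against CD27lo, PLEKHG3 gave 0.03 with median scaling, TSPAN2 -0.07 with normexp and -0.14 with array weights, PDGFRB -0.56 within the first slide and CRIP1 -0.08 within the second. With 1 array left out PLEKHG3 ran from -0.35 to 0.02 and TSPAN2 from -0.04 to 0.27. For CD27 single positives against double-low cells, TSPAN2 gave -0.13 with normexp, PDGFRB -0.25 with array weights and -1.18 within the first slide, and -0.02 to 2.08 with 1 array left out. In the interaction PDGFRB gave 0.41 with normexp, 0.82 with array weights and 0.88 without the 2 dimmest arrays (-1.63 to 0.56 with 1 left out), TSPAN2 0.11 with normexp and FGFBP2 -0.14 with array weights. STK38 against B cells gave 0.03 with the number as a block. The cause of these changes was not tested. Quantile normalization moved the median CD27 difference of all genes from -0.37 to -0.13 and the B cell one from 0.36 to 0.17. Signals below background limit SENP5, PDGFRB and TSPAN2.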
